A study of Rattus norvegicus with 16 samples.

Results

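The genes described here are 5 that cells use to make serine and asparagine or to turn on the response to amino acid shortage: *Phgdh*, *Psat1*, *Asns*, *Atf4* and *Ddit3*. Members were found by symbol in the platform's probe-to-gene annotation, which gave 1 probe set for each gene, so 5 of the 31099 probe sets on the array. A probe set is a group of short probes that together report 1 transcript. All 5 were bright enough to be tested, among 15521 probe sets tested in all, whose mean log2 signal over the arrays was at least 7.35 (a signal of 163).

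Each of the 16 arrays carried RNA from the diencephalon, the brain region made of thalamus and hypothalamus, of a single male Sprague-Dawley rat, with 4 rats in each of 4 groups. No genotype beyond the strain was given, and the diets began when they were 5 weeks old. Zinc-deficient rats (ZD) ate freely for 10 days from a diet holding 0.6 mg zinc per 1000 g, while pair-fed rats (PF) were given a diet with 30.0 mg zinc per 1000 g in the amounts that ZD rats ate. Recovery rats (ZR) had the deficient diet for 10 days and then a fixed 13 g ration of the 30.0 mg diet for 6 days. Their pair-fed partners (ZRPF) had the 30.0 mg diet throughout, matched to ZR intake for 10 days and at the same 13 g ration for the last 6. All 4 groups were offered 300 mM NaCl in a salt preference test. The 4 rats of each group were chosen by the submitters as average in body weight, plasma zinc and salt preference. In the recovery experiment 1 ZRPF rat and 3 ZR rats had been removed for their salt preference, so the spread given below is that of selected rats.

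Serine is made from a glycolysis intermediate in a chain of enzymes: *Phgdh* encodes phosphoglycerate dehydrogenase, which takes the first and committed step, *Psat1* encodes phosphoserine aminotransferase, which takes the second, and *Psph* encodes the phosphatase that releases serine. In brain these enzymes are known mainly from astrocytes, which supply serine to neurons. When amino acids run short, uncharged tRNA activates the kinase GCN2 (*Eif2ak4*), and when unfolded protein collects in the endoplasmic reticulum (ER), the kinase PERK (*Eif2ak3*) acts on the same target, the translation factor eIF2. Its phosphorylation slows translation in general but favours that of *Atf4*, a transcription factor known to act on *Asns* (asparagine synthetase), *Phgdh*, *Psat1* and *Ddit3*, the last of which encodes the factor CHOP. Because ATF4 is controlled largely at translation, *Atf4* mRNA and ATF4 protein can change separately, and only mRNA was measured.

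The stretch before the start of each gene is shown for the 3 enzymes, since ATF4 target genes are known to carry a paired site for ATF4 and C/EBP factors there. Sequences are the 200 bases before the 1 transcription start that the RefSeq promoter table gives for each gene in the rat assembly GRCr8, written 5′ to 3′ along the gene. All 3 genes lie on the minus strand: *Phgdh* at chr2:188595700-188624789 with its window at chr2:188624790-188624989, *Psat1* at chr1:222623553-222646187 with its window at chr1:222645409-222645608, and *Asns* at chr4:36752061-36769970 with its window at chr4:36769416-36769615. For *Psat1* and *Asns* that start lies inside the annotated gene, whose span begins upstream of the window, and for *Phgdh* it is the outer end of the gene. Capitals mark CCAAT, the box bound by the factor NF-Y, and TTGCATC, the reverse strand of GATGNAA.
Phgdh: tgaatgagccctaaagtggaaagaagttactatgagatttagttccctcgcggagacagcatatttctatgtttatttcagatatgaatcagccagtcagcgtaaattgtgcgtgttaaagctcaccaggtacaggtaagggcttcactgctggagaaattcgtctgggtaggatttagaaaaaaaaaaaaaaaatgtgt
Psat1: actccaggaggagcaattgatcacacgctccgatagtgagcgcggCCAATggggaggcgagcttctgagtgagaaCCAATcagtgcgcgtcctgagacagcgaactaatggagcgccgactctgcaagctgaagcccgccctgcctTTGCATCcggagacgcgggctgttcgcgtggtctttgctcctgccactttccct
Asns: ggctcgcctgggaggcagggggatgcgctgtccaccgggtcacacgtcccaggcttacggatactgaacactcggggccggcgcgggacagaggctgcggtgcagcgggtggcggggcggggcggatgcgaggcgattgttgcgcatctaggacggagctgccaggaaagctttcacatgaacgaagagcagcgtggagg

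Motifs were sought on both strands of the 250 bases before the start. The amino acid response motif TGATGNAA was in none of the 5 members, against 3.40% of 33469 rat promoters, and in 7 of 25 promoters of listed ATF4 targets (28.0%), among them *Chac1*, *Trib3* and *Nupr1*. Its core GATGNAA, which every TGATGNAA match contains, was in 10.23% of all promoters and among the members only in *Psat1*, 54 bases before the start. CCAAT was in 34.02% of all promoters; *Psat1* held it at 155 and 125 bases before the start, *Phgdh* at 204, outside the stretch shown, and *Ddit3* at 76 on the reverse strand. *Ddit3* (chr7:65001695-65006517) and *Atf4* (chr7:113684681-113686739) lie on the plus strand. A match is a run of letters and not a binding site, and the lack of one covers only this window, before 1 annotated start. The *Phgdh* window had a GC content of 39.0%, against 60.0% for *Psat1* and 67.5% for *Asns*, and whether its start is the one used in brain was not tested.

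The values are MAS5 signals in linear units, scaled by the authors so that every array had a trimmed mean near 500. Arrays of a group correlated at 0.974 to 0.987 over the tested probe sets. The first principal component, with 35.1% of the variance, set all 10-day arrays (scores of 13.1 to 23.0) apart from all 16-day arrays (-18.8 to -15.1). The ratio of the 3′ to the 5′ beta-actin control, a measure of RNA length, was 2.59 to 3.31 in 10-day arrays and 4.14 to 5.59 in 16-day arrays, and experiment, age, ration and time on diet differed along with it. ZD 8 and ZD 9 had the highest scores on that component (21.4 and 23.0), so some results in ZD rats are given also without these arrays. Among them are those of *Phgdh* and *Asns*, while the cell markers are given with all arrays only. Markers of neurons, oligodendrocytes, thalamus and hypothalamus were present in every group, although *Pomc* of the hypothalamic list and *Gad2* and *Syt1* of the neuronal list were below the filter.

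None of the 5 genes passed the test in ZD against PF rats, where no probe set at all did (0% of 15521). At an unadjusted p under 0.05 there were 2 members, *Phgdh* and *Asns*, both higher in ZD rats, beside 1220 of the 15521 probe sets (7.86%). The same 2 members had groups that did not overlap, which held for 651 probe sets (4.19%). Differences below are log2 fold changes from limma, fitted over all tested probe sets and 4 groups together, with p adjusted by the Benjamini-Hochberg method over all 15521 and a threshold of 0.05.

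*Phgdh* signals were 3053, 3029.5, 2859 and 2908 in the 4 ZD rats, against 2448, 2582, 2598 and 2368 in the 4 PF rats. Values run in order of rat number (ZD 2, 3, 8 and 9; PF 1, 2, 4 and 6), here and below. Every ZD rat was above every PF rat, with a mean of 2962 ± 94.13 in ZD and 2499 ± 110.0 in PF (SD, n = 4 each). On the log2 scale the difference was 0.25 ± 0.08 (SE), or 18.6%, with a 95% confidence interval of 0.08 to 0.42. Its unadjusted p in limma was 0.00728, and 244 of the probe sets tested (1.57%) had one as small, so the adjusted p was 0.462. Without ZD 8 and ZD 9 the difference was 0.28 ± 0.10 (adjusted p = 0.411 in limma).

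*Psat1*, the next enzyme of the same chain, was not higher in ZD rats. Its signals were 7708, 7408, 6829.8 and 7331 in ZD rats, against 8222, 7246, 8289 and 7928 in PF rats. The groups overlapped through PF 2, and the mean was lower in ZD: 7319 ± 364.6 in ZD and 7921 ± 476.5 in PF (SD, n = 4 each). The log2 difference was -0.11 ± 0.06 (SE), with an interval of -0.24 to 0.01 and an adjusted p of 0.666 in limma. *Psph*, the third enzyme, had a log2 difference of 0.05 ± 0.10 (adjusted p = 0.944 in limma).

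Within each array, the level of *Phgdh* was also set against that of *Psat1*, as the difference of their log2 signals less its mean over the 16 arrays. It was 0.09, 0.13, 0.17 and 0.09 in ZD rats, against -0.32, -0.07, -0.25 and -0.32 in PF rats. The groups did not overlap (mean 0.12 ± 0.04 in ZD and -0.24 ± 0.12 in PF, SD, n = 4 each). This pair was set side by side with the direction of both genes known, which largely set that outcome in advance. The share of other gene pairs without overlap was not counted, and no test is given. In the recovery experiment the means were 0.04 ± 0.16 in ZR and 0.08 ± 0.21 in ZRPF, with overlap.

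**Figure D1:**
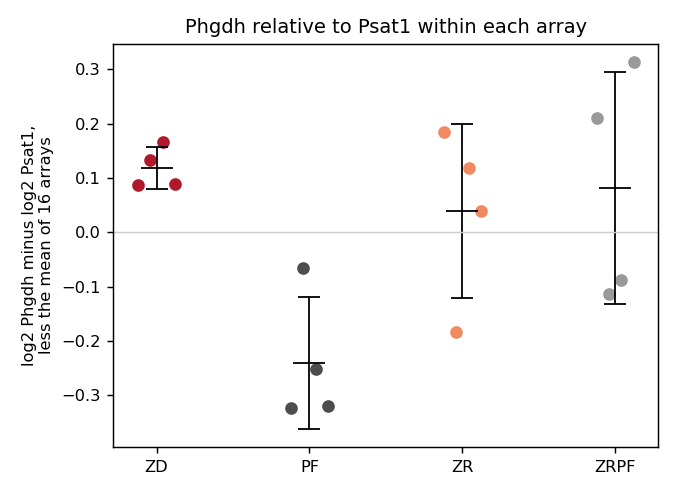
Log2 signal of *Phgdh* minus that of *Psat1* in each array, less the mean over 16 arrays (y axis, log2 units), by group (x axis). Points are rats and bars the mean ± SD (n = 4). ZD rats lie between 0.09 and 0.17, above all PF rats, while ZR and ZRPF rats overlap. The pair was chosen with the direction of both genes known.

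*Asns*, a textbook target of ATF4, gave signals of 1166, 1035, 1171 and 1233 in ZD rats, against 1017, 1026, 924 and 1012 in PF rats. The groups did not overlap, by a narrow gap between the lowest ZD rat and the highest PF rat, and the means were 1151 ± 83.49 in ZD and 994.9 ± 47.68 in PF (SD, n = 4 each). ZD rats were higher on the log2 scale by 0.21 ± 0.07 (SE), or 15.6%, with an interval of 0.06 to 0.36. Its unadjusted p in limma was 0.00837, as small in 273 of the probe sets tested (1.76%), and its adjusted p was 0.475. Without ZD 8 and ZD 9, which held its highest values, it was 0.14 ± 0.08 (adjusted p = 0.664 in limma).

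*Atf4* itself had signals of 4842, 4515, 4809 and 5440.2 in ZD rats, against 4798, 5248, 4792 and 5249.5 in PF rats. The groups overlapped over nearly their whole range. The log2 difference was -0.04 ± 0.07 (SE), with an interval of -0.19 to 0.12 and an adjusted p of 0.935 in limma. That interval lay below the estimate of 0.25 for *Phgdh* but overlapped the interval of *Phgdh*, 0.08 to 0.42.

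*Ddit3* had signals of 843, 770.2, 831 and 927 in ZD rats, against 771, 983, 816 and 899 in PF rats. These also overlapped, with the highest value in a PF rat. This gave a log2 difference of -0.04 ± 0.09 (SE), with an interval of -0.22 to 0.14 and an adjusted p of 0.944 in limma.

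**Figure D2:**
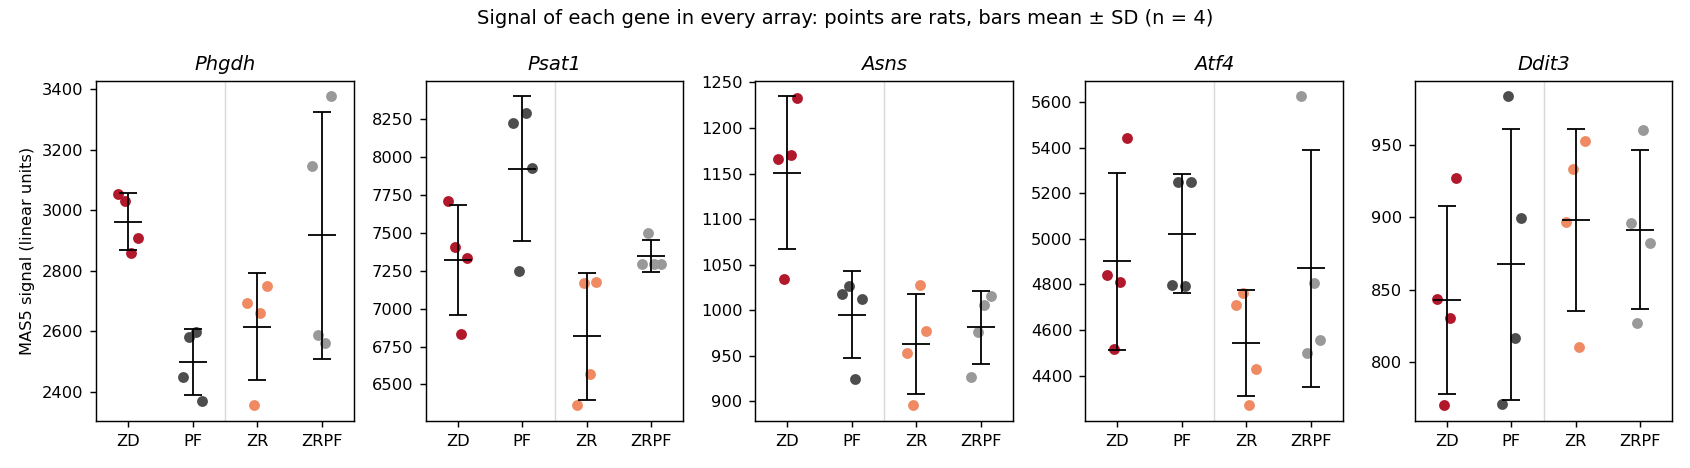
MAS5 signal (y axis, linear units, a separate range for each gene that does not start at 0) of the 5 genes in every array, by group (x axis: ZD, PF, ZR, ZRPF). Points are rats and bars the mean ± SD (n = 4); *Phgdh* and *Asns* lie higher in all ZD rats than in any PF rat, and *Atf4* and *Ddit3* overlap in every comparison.

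After 6 days back on zinc, ZR rats were set against ZRPF rats to see what difference was left. No member passed the test, while 1 probe set of 15521 did (0.00644%), and no member had an unadjusted p under 0.05, beside 808 probe sets (5.21%). Only *Psat1* had groups without overlap, as did 462 probe sets (2.98%). The means of *Phgdh* and *Asns* were not higher in ZR than in ZRPF rats.

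*Phgdh* signals were 2694, 2355, 2659 and 2751 in ZR rats (7, 10, 13 and 15), against 3147, 2587, 2560.0 and 3377 in ZRPF rats (2, 4, 5 and 6). ZRPF rats fell into a high pair and a low pair, and ZR rats overlapped the low pair. The log2 difference was -0.15 ± 0.08 (SE), with an interval of -0.32 to 0.02 and an adjusted p of 0.927 in limma. Leaving out ZRPF 6, the highest rat, gave a difference of -0.08. Of 12 tested astrocyte markers, 4 were higher and 8 lower in ZR (median log2 difference -0.12). Their summed signal was 89753 to 105847 in ZR rats and 97536 to 113666 in ZRPF rats. Also lower were 8 of 9 meningeal and mural markers (median -0.16), 4 of 5 of ependyma and tanycytes (-0.26) and 3 of 4 of choroid plexus (-0.31). Higher in ZR were 6 of 7 of endothelium (0.05) and 6 of 10 of thalamus (0.04). The part of these cells in the *Phgdh* value was not tested.

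*Psat1* signals were 6362, 7171, 6566 and 7176 in ZR rats, against 7292, 7501, 7293 and 7291 in ZRPF rats. Every ZR rat was below every ZRPF rat, and 3 of the 4 ZRPF values were nearly the same. Its log2 difference was -0.11 ± 0.06 (SE), the same size as in ZD against PF, with an adjusted p of 0.927 in limma.

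*Asns* signals were 953, 895, 1027 and 978 in ZR rats, against 927, 976, 1006 and 1016 in ZRPF rats, which overlapped. The log2 difference was -0.03 ± 0.07 (SE), with an interval of -0.18 to 0.12 and an adjusted p of 0.974 in limma. *Atf4* signals were 4709.6, 4762, 4269 and 4429 in ZR rats, against 5624, 4497, 4808 and 4554 in ZRPF rats. *Ddit3* signals were 897, 933, 811 and 952 in ZR rats, against 896, 827, 960.3 and 882 in ZRPF rats. Both transcription factors overlapped between the groups, with log2 differences of -0.10 ± 0.07 for *Atf4* and 0.01 ± 0.09 for *Ddit3* (SE; adjusted p = 0.945 and 0.992 in limma).

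Whether the difference between deficient and pair-fed rats changed with recovery was tested directly, as (ZR minus ZRPF) minus (ZD minus PF). No member and no probe set passed (0%), and 2 members had an unadjusted p under 0.05, beside 1025 probe sets (6.60%). For *Phgdh* the change was -0.40 ± 0.12 (SE), with an interval of -0.64 to -0.15, an unadjusted p of 0.00288 that 46 probe sets (0.296%) matched or went below, and an adjusted p of 0.747 in limma. It combines higher *Phgdh* in ZD than in PF with lower *Phgdh* in ZR than in ZRPF. All 9 meningeal and mural markers, all 4 of choroid plexus, all 5 of ependyma and tanycytes and 6 of 7 of endothelium also had a negative change, as did 5241 of all 9278 genes. So did 8 of 12 astrocyte markers (median -0.09), 6 of 7 of microglia and 5 of 7 of oligodendrocytes. Thalamic markers went the other way in 7 of 10 (median 0.16). Neuronal markers were 4 positive and 4 negative, and hypothalamic ones 6 positive and 7 negative. For *Asns* the change with recovery was -0.24 ± 0.10 (unadjusted p = 0.0294, adjusted p = 0.747 in limma). It was 0.00 ± 0.08 for *Psat1*, -0.06 ± 0.10 for *Atf4* and 0.05 ± 0.12 for *Ddit3*, with adjusted p of 0.92 to 0.994 in limma.

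The pair-fed groups, ZRPF against PF, differ in experiment, age, ration and days on diet, which cannot be told apart. Here 2430 probe sets passed (15.7%), 4674 had an unadjusted p under 0.05 (30.1%) and 3323 did not overlap (21.4%). Of the members none passed, 1 had an unadjusted p under 0.05 and none was without overlap. *Phgdh* was higher in ZRPF by 0.21 ± 0.08 on the log2 scale (SE; adjusted p = 0.0819 in limma), with the high pair of ZRPF rats above every PF rat. Without ZRPF 4 or without ZRPF 5, the low pair, it passed, at 0.27 each (adjusted p = 0.0387 and 0.0369 in limma), and without ZRPF 6 it was 0.14. *Psat1* differed by -0.11 ± 0.06 (adjusted p = 0.23), and passed only when each array was centred on its median, at -0.19 (adjusted p = 0.0195 in limma). *Asns*, *Atf4* and *Ddit3* differed by -0.02 ± 0.07, -0.05 ± 0.07 and 0.04 ± 0.09 (SE), with adjusted p of 0.713 to 0.885 in limma. Both ZD against PF and ZRPF against PF use the same PF rats, so high *Phgdh* in each shares that baseline. Cell markers differed here too. Hypothalamic markers were higher in ZRPF in 10 of 13 (median 0.30, 4 passed). Their summed signal did not overlap, at 45312 to 50017 in ZRPF rats and 32689 to 38330 in PF rats. Higher were also 9 of 12 astrocyte markers (median 0.11, 2 passed) and all 4 of choroid plexus. Neuronal markers were 4 higher and 4 lower, and 6 of 10 thalamic ones were lower. Their part in the *Phgdh* value was not tested.

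**Figure D3:**
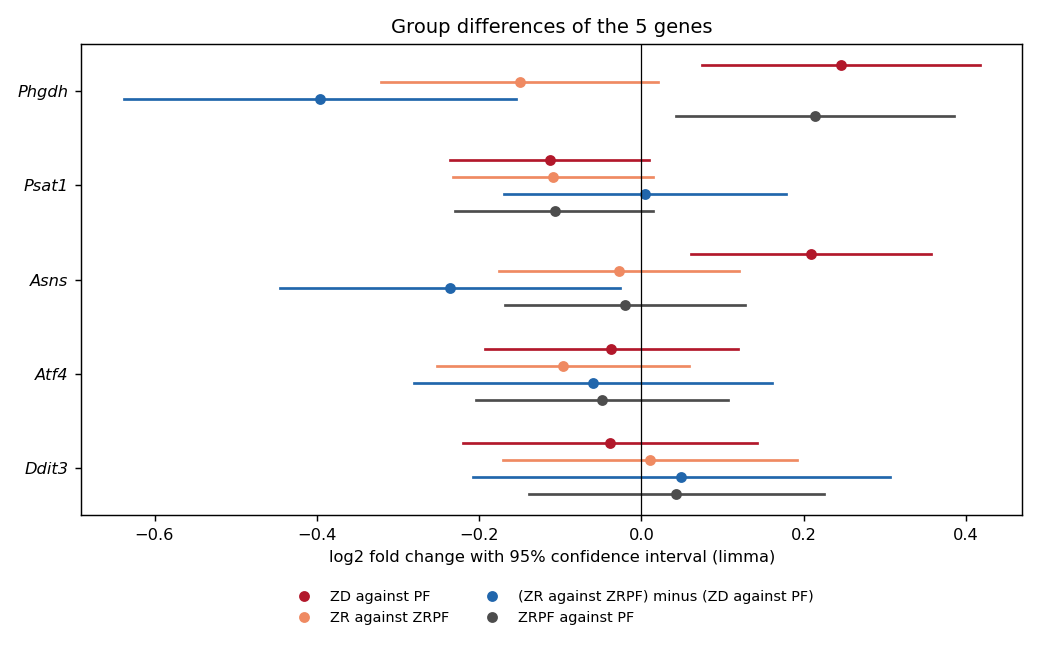
Log2 fold change (x axis) with its 95% confidence interval from limma for the 5 genes (y axis) in 4 contrasts, drawn top to bottom as ZD against PF, ZR against ZRPF, the change with recovery, and ZRPF against PF. The intervals of *Phgdh* (0.08 to 0.42) and *Asns* (0.06 to 0.36) in ZD against PF lie above 0, yet no adjusted p is under 0.05.

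Among the rats of a group, taking off each group's mean, the 2 transcription factors varied together: *Atf4* and *Ddit3* correlated at r = 0.638 over 16 arrays. The other pairs ran from -0.339 (*Psat1* with *Asns*) to 0.28 (*Asns* with *Ddit3*), and *Phgdh* was at -0.125 with *Psat1* and 0.002 with *Asns*. These arrays share tissue and processing, and the values are descriptions. Of 9277 other genes, those that followed each member most closely by this measure were *Smco4*, *Coq10b* and *Dcaf10* for *Phgdh* (0.802, 0.791 and 0.789), *Pttg1ip*, *Dnmt1* and *Med29* for *Psat1* (0.860, 0.846 and 0.834), and *Maneal*, *Ppp1r8* and *Cmpk2* for *Asns* (0.875, 0.862 and 0.860). For *Atf4* they were *Tvp23a*, *Napa* and *Tomm5* (0.888, 0.883 and 0.864), and for *Ddit3* *Ahsa1*, *Ehbp1l1* and *Lsm11* (0.917, 0.873 and 0.856).

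Markers of other cells moved in ZD against PF beside *Phgdh* and *Asns*. The diencephalon is a mixture, and in bulk RNA fewer cells of a type and less RNA per cell cannot be told apart. All 9 tested markers of meninges and mural cells were higher in ZD (median log2 difference 0.41; summed signal 4802 to 9709 in ZD rats and 4619 to 5674 in PF rats), as were all 7 of endothelium (median 0.19; 6323 to 8118 in ZD and 5928 to 6764 in PF) and all 4 of choroid plexus (1413 to 10912 in ZD and 707 to 1775 in PF). All 5 of ependyma and tanycytes were higher too (median 0.17), and their summed signal did not overlap, at 3473 to 4301 in ZD rats and 2796 to 3262 in PF rats. No single marker of the 5 was without overlap. The brightest, *Vim*, weighs most in that sum and ran from 1628 to 2349 in ZD rats and 1431 to 1634 in PF rats. Thalamic markers were lower in 9 of 10 (median -0.11; 28765 to 33886 in ZD and 32131 to 36620 in PF). Of 12 tested astrocyte markers, 2 were higher and 10 lower in ZD (median -0.07; 88337 to 95261 in ZD and 86294 to 101957 in PF). Of 7 microglial markers 5 were higher (median 0.15). Lower were 6 of 8 of neurons (median -0.06) and 5 of 7 of oligodendrocytes (median -0.02), while hypothalamic markers were 7 higher and 6 lower. Within groups the strongest correlation of a marker list with *Phgdh* was that of neurons (-0.587; 0.192 with *Asns*), and with *Asns* that of oligodendrocytes (-0.435; -0.208 with *Phgdh*). The mean log2 level of the astrocyte markers correlated with *Phgdh* at -0.203 and with *Asns* at -0.429, that of endothelium at 0.237 and -0.08, and that of meninges and mural cells at 0.173 and -0.197. The part of these cells in the *Phgdh* and *Asns* values was not tested.

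The genes around the 5 members were read from pathway lists, each gene by its brightest tested probe set. Some lists share genes. No listed gene passed the test in ZD against PF or in ZR against ZRPF. Over all 9278 genes, 55.6% were higher in ZD than in PF (median log2 difference 0.02), and 46.9% higher in ZR than in ZRPF (median -0.01). Counts near an even split moved with the scaling: with each array centred on its median, 5 serine genes, 4 ATF4 targets, 5 transporters and 4 tRNA synthetases were higher in ZD.

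In ZD against PF, of 19 tested serine, glycine and one-carbon genes, 8 were higher and 11 lower, with a median of -0.03. After *Phgdh*, the smallest p belonged to *Cth*, which encodes cystathionine gamma-lyase of cysteine synthesis: 157.6 to 233.5 in ZD rats and 221.2 to 269.5 in PF rats, a log2 difference of -0.38 ± 0.13 (SE; adjusted p = 0.489 in limma). In ZR against ZRPF 10 were higher and 9 lower (median 0.02). Among these *Aldh1l1*, a folate enzyme of astrocytes, had the smallest p at -0.26 ± 0.10 (SE; adjusted p = 0.927 in limma).

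ATF4's listed targets were split in direction. Of 19 tested, 8, *Asns* among them, were higher and 11 lower in ZD than in PF, with a median of -0.04, and with the same split and median in ZR against ZRPF. The split in ZD against PF moved with single rats: 3 were higher and 16 lower without ZD 2, and 11 higher and 8 lower without ZD 3. *Vegfa*, the vascular growth factor, was at -0.22 ± 0.08 in ZD against PF (SE, adjusted p = 0.503 in limma). The largest difference of the list was that of *Ddit4*, at -0.605 ± 0.235 (SE, adjusted p = 0.549 in limma), opposite to *Asns*. It was lower without overlap by a narrow gap, at 1334 to 1904 in ZD rats and 1909 to 3570 in PF rats. *Atf3*, *Trib3*, *Nupr1*, *Stc2*, *Fgf21*, *Gdf15* and *Jdp2*, strongly induced targets in stressed cells, were below the filter and not tested. For ZR against ZRPF the smallest p values were those of *Gadd45a* (-0.25 ± 0.12), *Atf5* (-0.13 ± 0.08) and *Herpud1* (-0.19 ± 0.12; SE, adjusted p of 0.927 to 0.945 in limma).

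Of 14 tested amino acid transporters, 8 were higher and 6 lower in ZD than in PF, with a median of 0.02. *Slc38a2*, which encodes the neutral amino acid transporter SNAT2 and is itself known as an amino acid response gene, was lower without overlap: 2605 to 3857 in ZD rats and 3880.0 to 5299 in PF rats. Its log2 difference was -0.50 ± 0.12 (SE; adjusted p = 0.224 in limma), opposite to *Asns*, and -0.64 ± 0.13 without ZD 8 and ZD 9 (adjusted p = 0.0904 in limma). *Slc7a3* and *Slc1a5* were at 0.12 ± 0.07 and 0.18 ± 0.12. In ZR against ZRPF, 7 were higher and 7 lower, and *Slc38a2* was at -0.02 ± 0.12; *Slc7a6*, *Slc3a2* and *Slc43a2* had the smallest p there, at -0.26 ± 0.12, -0.15 ± 0.07 and -0.20 ± 0.12 (SE; adjusted p = 0.927 in limma).

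The 19 tRNA synthetases, many of them also ATF4 targets, were split 9 higher and 10 lower in ZD against PF (median 0.00; 6 to 14 lower with single arrays left out), with *Hars1*, *Tars1* and *Qars1* at 0.09 ± 0.08, -0.10 ± 0.09 and 0.10 ± 0.10. Between ZR and ZRPF, 8 were higher and 11 lower, and *Iars1* was higher without overlap, at 1445 to 1503 in ZR rats and 1221 to 1407 in ZRPF rats (log2 difference 0.17 ± 0.07, SE; adjusted p = 0.927 in limma). *Yars1* and *Rars1* were at -0.12 ± 0.07 and -0.12 ± 0.08.

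Of 16 genes for eIF2 kinases, eIF2B and their regulators, 7 were higher and 9 lower in ZD than in PF (median -0.03), and 3 were higher and 13 lower in ZR than in ZRPF (median -0.05). GCN2's *Eif2ak4* was at 0.06 ± 0.14 and PERK's *Eif2ak3* at -0.03 ± 0.10 in ZD against PF, and *Eif2ak3* at 0.18 ± 0.10 in ZR against ZRPF. *Nck1*, an adaptor protein, was lower in ZD without overlap, at 1151 to 1321 in ZD rats and 1374 to 1464 in PF rats (-0.17 ± 0.07, SE; adjusted p = 0.558 in limma). *Dnajc3*, an inhibitor of PERK, was at -0.23 ± 0.10 in ZD against PF and -0.28 ± 0.10 in ZR against ZRPF, and *Eif2b5*, the catalytic eIF2B subunit, at -0.11 ± 0.09 and -0.17 ± 0.09. Both were lower without overlap in ZR: *Dnajc3* at 352.2 to 405.4 in ZR and 415.1 to 491 in ZRPF, and *Eif2b5* at 309.6 to 355.7 in ZR and 366.9 to 405.6 in ZRPF. So was *Eif2b3*, another eIF2B gene, at 372.4 to 402.4 in ZR and 419.9 to 511.2 in ZRPF. Its log2 difference was -0.218 ± 0.122 there (SE, adjusted p = 0.927 in limma) and 0.143 ± 0.122 in ZD against PF.

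ER chaperones and genes of the IRE1 and ATF6 branches respond to unfolded protein. Their list is not separate from the others, since *Herpud1* is also listed as an ATF4 target and *Dnajc3* with the eIF2 genes. In ZD against PF the list lay all on 1 side: 0 of 19 were higher and 19 lower, with a median of -0.15. Of these 8 had an unadjusted p under 0.05, beside 297 of all 9278 genes that were lower at that p. Without ZD 8 and ZD 9 there were again 19 lower (median -0.15), and with any single array left out, 17 to 19; under quantile normalization 18 were. *Sdf2l1*, a chaperone cofactor, was lower without overlap at 464.1 to 661.6 in ZD rats and 698.5 to 1065 in PF rats, a log2 difference of -0.60 ± 0.16 (SE; adjusted p = 0.265 in limma). *Hspa5*, the chaperone BiP, was at -0.39 ± 0.12 and *Manf*, an ER-resident survival factor, at -0.35 ± 0.11 (SE; adjusted p = 0.37 and 0.386 in limma). In ZR against ZRPF 4 were higher and 15 lower (median -0.09), with *Xbp1*, the factor made by IRE1 splicing, at -0.23 ± 0.08 and *Creld2* at -0.39 ± 0.14 (SE; adjusted p = 0.927 in limma for both). These genes are regulated together, so the count is not that of 19 separate observations.

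Partners and regulators of ATF4 and CHOP had 5 of 13 tested genes higher and 8 lower in ZD than in PF (median -0.07), and 9 higher and 4 lower without ZD 8 and ZD 9. *Crebbp* and *Ep300*, which encode histone acetyltransferases, were at -0.20 ± 0.08 and -0.20 ± 0.10, and *Fos*, an AP-1 factor, at -0.25 ± 0.18 (SE; adjusted p of 0.581 to 0.762 in limma). *Crebbp* had other probe sets at 0.14 ± 0.16 and 0.00 ± 0.10, so its probe sets disagreed. Between ZR and ZRPF 7 were higher and 6 lower, with *Cebpb* at -0.24 ± 0.20, *Crebbp* at 0.08 ± 0.08 and *Nfe2l1* at 0.06 ± 0.07.

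**Figure D4:**
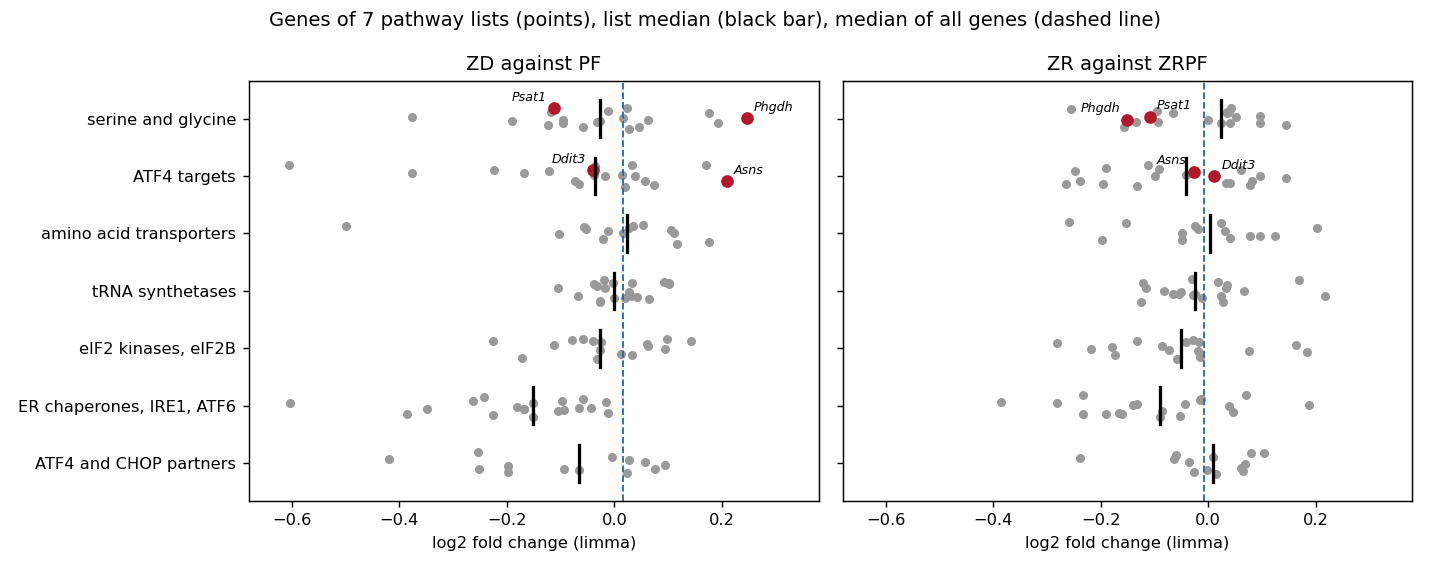
Log2 fold change from limma (x axis) of each tested gene of 7 pathway lists (y axis) in ZD against PF (left) and ZR against ZRPF (right). Grey points are genes, red points the members that are on a list, black bars the list medians and the dashed line the median of all 9278 genes. *Atf4* is on none of the 7 lists and is not drawn. *Phgdh* and *Asns* lie at the right edge of their lists in the left panel, and all 19 ER genes lie below 0 there.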

How the data were processed

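RNA from 16 rat diencephalons had been labelled from 100 ng by a 3′ IVT method, per the labels' protocols, with 1 array per rat. The deposited values were linear MAS5 signal intensities, 1 per probe set and array, per the submitters' processing notes; the MAS5 version is not given in the sources used here, and detection calls were not used here. After 2% of values were dropped at each end, each array's mean signal came to 500.135 to 500.147. Signals were taken as log2 with no further normalization. Control probe sets (57) were set aside, and probe sets at or above the median mean log2 signal were tested. Symbols came from the platform annotation, with 20826 probe sets naming 1 gene, 436 several and 9780 none. The 4 groups were fitted together in limma 3.58.1 (R 4.3.3), with an intensity trend, two-sided tests and Benjamini-Hochberg adjustment, and the script was tested on simulated data. The number of arrays, 4 per group, limits the precision, and no label says whether rats shared litters. Genes named are the members and the 3 genes most like each member. Listed genes named are those past the threshold or else the 3 with the smallest p per list and comparison. *Psph*, *Eif2ak4*, *Ddit4*, *Eif2b3*, the targets named as below the filter and those named for their promoters were added after their values were seen. Members and lists were chosen with earlier results of these data known. Alternatives covered normalization, filter, offset, trend, weights, RNA length and arrays left out.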

Additional observations from a re-analysis of the deposited data

Results flagged for a closer look

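In 6 of 184 groups of 4 rats, over 46 genes, 1 rat lay far from the other 3, by a share of the group's whole range above Dixon's critical value at the 95% level; chance gives about 1 in 20 groups. No explanation was tested for any of them.

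Members account for 2 of the 6. *Psat1* in ZRPF rats had a gap of 0.993 of the range, with ZRPF 4 at 7501 and the others at 7291 to 7293, so that the absolute gap was small. *Asns* in PF rats had a gap of 0.865, with PF 4 at 924 and the others at 1012 to 1026; without PF 4 the log2 difference of *Asns* in ZD against PF is within the range given for single arrays left out.

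The other 4 concern genes of the pathway lists. *Slc6a9*, a glycine transporter, had PF 2 at 1004 and the others at 1335 to 1396 (0.864). *Slc38a2* had PF 6 at 5299 and the others at 3880.0 to 4091 (0.83). *Vegfa* had ZD 8 at 949.5 and the others at 831.3 to 845.9 (0.869). *Cebpb*, a C/EBP factor, had ZD 8 at 134.3 and the others at 212.3 to 216.4 (0.959).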

How the results depend on the processing

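Of 540 recomputed log2 differences of the members, 512 kept their direction and side of the threshold, 24 changed sign and 4 newly passed. Over all alternatives *Phgdh* stayed between 0.20 and 0.28 in ZD against PF (adjusted p of 0.296 to 0.707 in limma) and *Asns* between 0.14 and 0.26 (0.285 to 0.739), and the change of *Phgdh* with recovery between -0.46 and -0.32 (0.389 to 0.929). For single arrays left out *Asns* was 0.17 to 0.26 in ZD against PF. No member passed in ZD against PF, ZR against ZRPF or the change with recovery under any alternative run.

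Counts of probe sets past the threshold were small and unsteady outside the pair-fed comparison. In ZD against PF the count was 1 without ZD 8 and ZD 9 and 0 to 3 with single arrays left out (3 without ZD 8). In ZR against ZRPF it was 0 under quantile normalization, with no filter, for the brightest probe sets only, with no trend, with only the compared arrays and with either RNA length ratio as a covariate, and 0 to 9 with single arrays left out (9 without ZRPF 6). For the change with recovery it was 0 to 1. In ZRPF against PF it was 771 with the Gapdh 3′/5′ ratio as a covariate and 7 with the beta-actin ratio, which was chosen after seeing the data, and 1681 to 2651 with single arrays left out. Of its 2430 calls 60.7% were higher in ZRPF, against 31.2% of 3121 under median centring.

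In ZRPF against PF, 1 member passed under median centring (*Psat1*, -0.19), array weights (*Phgdh*, 0.24) and 0 to 1 with single arrays left out (*Phgdh* 0.14 to 0.27). The change of *Psat1* with recovery was -0.0067 with weights, -0.0033 with the Gapdh ratio and -0.0431 without ZD 8 and ZD 9, where that of *Atf4* was 0.0054; with single arrays left out it was -0.0285 to 0.0465 for *Psat1*, -0.0978 to 0.0117 for *Atf4* and -0.0130 to 0.104 for *Ddit3*. In ZRPF against PF *Asns* was 0.12 with the beta-actin ratio, and *Ddit3* was -0.0419 under median centring and -0.0061 with the Gapdh ratio; with single arrays left out they were -0.0551 to 0.0071 and -0.0113 to 0.105. With single arrays left out, *Atf4* was -0.0881 to 0.0016 and *Ddit3* -0.0929 to 0.0237 in ZD against PF, and *Asns* -0.0588 to 0.0074 and *Ddit3* -0.0245 to 0.0591 in ZR against ZRPF. The causes were not tested.

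PF and ZRPF share the rat numbers 2, 4 and 6. Same-numbered deviations correlated at only 0.079, 0.020 and 0.035. PF 2 and PF 6 correlated best with the ZRPF rat of their own number, and PF 4 with one of another number. Rats of different numbers correlated at -0.096 to 0.078. The same-numbered values were small and close to that range, so the numbers were not taken to pair the rats. With the replicate block on these 6 arrays 1085 probe sets passed in ZRPF against PF, and *Ddit3* was -0.0478. The mean over several probe sets was not run, since each member has 1. Without detection calls, values close to the filter cannot be told from background.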

Other observations

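The genes around the members that passed in ZRPF against PF are given here; 15.7% of all probe sets passed in that comparison. Of 19 serine, glycine and one-carbon genes 3 passed, near that share, all higher as reported: *Shmt2*, the mitochondrial serine hydroxymethyltransferase (600.6 to 651.1 in ZRPF rats and 452.8 to 514.2 in PF rats; log2 difference 0.35 ± 0.08, SE, adjusted p = 0.00757 in limma), *Cbs*, which joins serine to homocysteine (0.66 ± 0.12; adjusted p = 0.00138 in limma), and *Slc6a9* (0.42 ± 0.10; adjusted p = 0.00978 in limma). Other probe sets of *Slc6a9* were at 0.63 ± 0.16 and 0.44 ± 0.21 (SE). Under median centring 3 of the serine, glycine and one-carbon list passed higher and 4 lower, and under quantile normalization 3 higher and 1 lower. Of 19 ATF4 targets 3 passed, also near the share of all probe sets, and all higher under these scalings too: *Atf5*, *Sesn2* and *Vegfa*, at 0.49 ± 0.08, 0.47 ± 0.10 and 0.53 ± 0.08 (SE).

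Of 19 ER genes 4 passed, all higher in ZRPF (4 higher and 1 lower under either other scaling): *Hyou1*, an ER chaperone (413.3 to 497.2 in ZRPF rats and 206.6 to 264.7 in PF rats; 1.01 ± 0.14, SE, adjusted p = 0.000111 in limma), *Calr* (0.67 ± 0.10), *Dnajc3* (0.53 ± 0.10) and *Xbp1* (0.32 ± 0.08). Lower in ZRPF were *Hars1* (-0.28 ± 0.08, another probe set at -1.03 ± 0.17) and *Lars1* (-0.21 ± 0.06) of 19 tRNA synthetases. So were *Eif2s1* (-0.26 ± 0.06), which encodes the alpha subunit of eIF2, and *Jun* (-0.39 ± 0.09, another probe set at -1.40 ± 0.15). The beta-actin 3′/5′ ratio differs between these groups, and with it as a covariate none of these genes passed; with the Gapdh ratio 2 of the 3 ATF4 targets and 2 of the 4 ER genes did, and none of the others. Experiment, age, ration, RNA length and the marker differences between these groups given above cannot be told apart here.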
